A study of Mus musculus with 2 samples.

Results

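The genes examined were 10 amino acid transporters of the plasma membrane that are reported to respond to the transcription factor ATF4: Slc7a11, Slc3a2, Slc7a5, Slc7a1, Slc7a3, Slc1a4, Slc1a5, Slc38a1, Slc38a2 and Slc6a9. They were found by gene symbol, as every probe set that the platform annotation gives to exactly 1 of these names. All 10 had at least 1 probe set, among 18193 genes with one, and together they had 20 of the 34945 probe sets with 1 symbol. Of these 20, 19 passed a filter on dim signals, and each gene kept at least 1. The cells were Neuro2a, a mouse neuroblastoma line, which received 1 of 2 siRNAs: a control of no specific target, or one directed at Tmem132a, a single-pass membrane protein gene. The siRNA sequences, doses and times of harvest are not given in the sources used here. Each group is 1 sample of total RNA on 1 Affymetrix Mouse Genome 430 2.0 array, so the values carry no replicate error and the groups cannot be tested against each other. Values are the authors' MAS5 signals, a brightness in arbitrary units per probe set, and differences are log2 ratios, with the Tmem132a siRNA as numerator and the control siRNA as denominator. Where several probe sets of a gene passed the filter, their log2 ratios were averaged into 1 gene ratio. Differences of 1.5-fold and more were counted (a log2 ratio of 0.58), and 2-fold was used as a larger size.

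Amino acid transporters of this kind bring in the substrates of protein and glutathione synthesis. When amino acids run short or unfolded proteins build up in the endoplasmic reticulum, kinases phosphorylate the initiation factor eIF2-alpha, most translation slows, and ATF4 is translated more. ATF4 pairs with C/EBP proteins on C/EBP-ATF response elements and raises transporters, amino acid synthesis enzymes and aminoacyl-tRNA synthetases. Several of the carriers also have other regulators, among them NRF2 for Slc7a11 and MYC family factors for Slc7a5 and Slc1a5.

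The arrays were on a common scale, with 2% trimmed mean signals of 496.33 (control siRNA) and 496.32 (Tmem132a siRNA). Tmem132a itself, on its 1 probe set, went from 1825.5 to 435.6 under its own siRNA, which is 23.9% of the control level. Groups were taken from the sample titles. The description field of the sample titled for Tmem132a carries the control's wording, whereas its treatment field names Tmem132a as the title does. Its array is the one with the lower signal of this gene. Of 12 markers of neuroblastoma and sympathetic cells, 10 had a probe set and all of those passed the filter. All 10 had ratios below 0 (median -0.26, from -1.19 to -0.04), where 51.8% of all genes lay above 0. Some were close to 0, such as Gata2 at -0.07 and Chrna3 at -0.04, each with probe sets on both sides of 0. The summed signal of the markers went from 33690.9 under the control siRNA to 28723.5 under the Tmem132a siRNA. Markers of other cells were mostly dim: 0 of 6 fibroblast genes, 0 of 6 immune genes, 1 of 6 glial genes (Mbp) and 1 of 6 epithelial and endothelial genes (Epcam) passed the filter. The summed signals of these 4 lists, in that order, were 431.7, 98.7, 651.8 and 286.4 on the former array and 309.7, 241.8, 830.1 and 411.2 on the latter. Their part in the results below was not tested. Since the signal is per amount of total RNA, fewer cells with a transcript and less of it per cell cannot be told apart.

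Most of the transporters were modestly higher on the Tmem132a siRNA array. Of the 10 genes, 9 had a ratio above 0, against 51.8% of all 10678 genes with a value. Slc7a11, Slc6a9 and Slc1a4 were at least 1.5-fold higher, which is 3 of 10 genes where 8.83% of all genes were. None was at least 1.5-fold lower, where 9.10% of all genes were, and none reached 2-fold, where 2.10% of all genes were that much higher and 2.44% that much lower. The gene ratios ran from -0.08 for Slc38a2 to 0.76 for Slc7a11, with a median of 0.48 beside a median of 0.02 over all genes. The count rests on ratios that lie close to the 1.5-fold size. With a pseudocount of 79.2 added to each signal in place of the floor, the 3 genes had ratios between 0.56 and 0.57 and 0 of 10 passed, while 4.35% of all genes did.

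**Figure D1:**
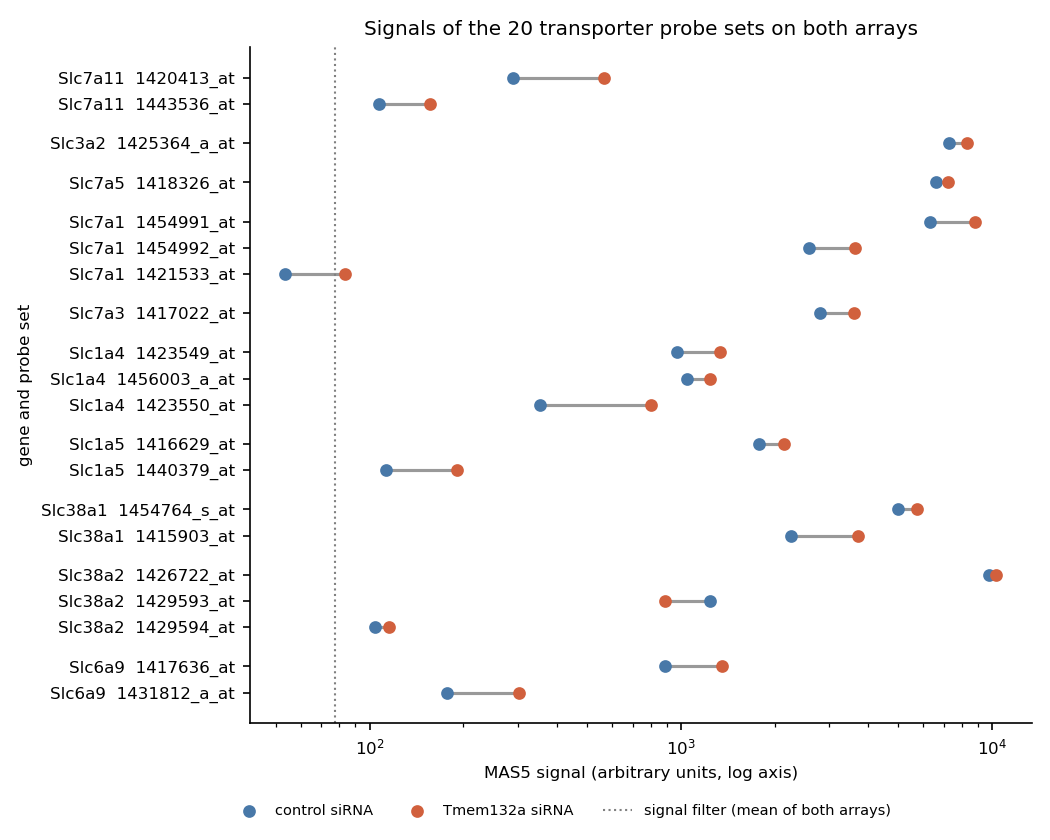
MAS5 signal (log axis) of each of the 20 transporter probe sets on the control siRNA array (blue) and the Tmem132a siRNA array (orange), with 1 array per group and no error bars. The orange point lies to the right in 19 of 20 probe sets, and the exception is the middle probe set of Slc38a2; the dotted line marks the filter at a mean signal of 77.25, which 1 probe set of Slc7a1 did not pass.

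Slc7a11 encodes xCT, which exchanges glutamate for cystine, the oxidised form of cysteine and the limiting precursor of glutathione. Its brighter probe set, 1420413_at, went from 289.0 (control siRNA) to 565.9 (Tmem132a siRNA), a 1.96-fold difference. The dimmer one, 1443536_at, went from 107.2 to 156.1, which is 1.46-fold. Both probe sets were thus higher on the Tmem132a siRNA array, and they gave the gene a log2 ratio of 0.76 with an SD of 0.30 over the 2 probe sets. Of all genes, 4.79% had a ratio as high or higher, which places Slc7a11 at rank 511 of 10678.

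The promoter of Slc7a11 is shown because it holds the ATF4 element on both strands. Promoters were taken from RefSeq (GRCm38.p6) for 6 of the 10 genes, Slc7a11, Slc1a4, Slc6a9, Slc7a1, Slc38a2 and Slc3a2, 9 promoters in all. Each window ran from 250 bases before the start of transcription to 50 after it. The core of the C/EBP-ATF response element was searched as TGATGNAA and in its stricter form TGATGCAA, which is one case of the former, on both strands. The stricter form lay in 294 of 32851 promoters (0.895%), and the looser one in 1304 (3.97%). By gene, these shares were 1.03% and 4.51% of 27025 genes with a promoter. Among the 6 transporter genes with a promoter, Slc7a11 and Slc1a4 held the stricter form, and neither form was in the windows of the other 4. Sequence outside the windows was not searched, so these 4 genes may hold an element elsewhere. In the Slc7a11 window it occurred at bases -66 to -59 on the strand of the gene (chr3:50443672-50443679) and at -47 to -40 on the opposite strand (chr3:50443653-50443660). Only 2 of the 32851 promoters held it at 2 places, those of Slc7a11 and of Chchd10, a mitochondrial protein gene whose ratio was 0.15 and which was picked out after its value was seen. In Slc1a4 it occurred once, on the opposite strand, over bases -4 to 4 around the start itself (chr11:20332710-20332717). The sequences are printed 5′ to 3′ along the gene, with the 8 bases of each match in capitals (TTGCATCA is the element read on the opposite strand). The windows are shown in part: Slc7a11 to the last base before the start (250 bases, chr3:50443614-50443863) and Slc1a4 to the end of its match (254 bases, chr11:20332710-20332963), both on the minus strand of GRCm38.p6.
Slc7a11: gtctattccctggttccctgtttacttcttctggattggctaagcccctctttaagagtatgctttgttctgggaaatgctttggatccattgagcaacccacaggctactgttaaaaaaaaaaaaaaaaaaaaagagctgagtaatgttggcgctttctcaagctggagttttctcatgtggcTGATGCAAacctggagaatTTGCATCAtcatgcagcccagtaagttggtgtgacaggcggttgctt
Slc1a4: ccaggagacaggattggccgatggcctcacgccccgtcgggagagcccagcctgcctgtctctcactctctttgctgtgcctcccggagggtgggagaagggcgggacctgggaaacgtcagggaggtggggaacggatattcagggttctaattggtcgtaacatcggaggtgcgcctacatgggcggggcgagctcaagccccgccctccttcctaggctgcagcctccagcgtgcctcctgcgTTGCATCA
A match shows that these letters are present and does not show that ATF4 was bound.

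Slc3a2 encodes the heavy chain CD98, which carries xCT and several other light chains to the cell surface. It was read by 1 probe set, 1425364_a_at, which went from 7265.8 to 8333.0, a log2 ratio of 0.20. Slc7a5 encodes LAT1, the light chain that exchanges large neutral amino acids such as leucine and is bound to this heavy chain. Its only probe set, 1418326_at, had signals of 6592.3 and 7214.7, a log2 ratio of 0.13. Of all genes, 32.6% had a ratio as high as that of the heavy chain or higher, and 38.9% one as high as that of LAT1 or higher. Among probe sets with a mean signal above 2000, these shares were 25.6% and 33.6%. Of the 6 light chains that pair with Slc3a2, 3 passed the filter: Slc7a11 at 0.76, Slc7a5 at 0.13, and Slc7a6, an exchanger of cationic and neutral amino acids, at -0.11. Slc7a7, Slc7a8 and Slc7a10 were dim, with signals up to 88.8 under the control siRNA and up to 58.7 under the Tmem132a siRNA. Among the 3 measured partners of the heavy chain, xCT alone was at least 1.5-fold higher, where 8.83% of all genes were. This count depends on the processing. With the pseudocount in place of the floor, Slc7a11 had a ratio of 0.57 and 0 of the 3 were that much higher. With the filter raised to a mean signal of 462.8, Slc7a11 had no value and the count was 0 of 2.

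Slc7a1 and Slc7a3 encode cationic amino acid transporters, which take up arginine, lysine and ornithine. Slc7a1 had the closest agreement between probe sets of the 7 genes with several past the filter. 1454991_at went from 6300.0 to 8825.4 and 1454992_at from 2582.3 to 3640.3, log2 ratios of 0.49 and 0.50. Although under 1.5-fold, these are large for bright probe sets: among 3515 probe sets with a mean signal above 2000, 6.29% and 5.80% had a ratio as high or higher. A dim probe set of the gene, 1421533_at, had 53.6 and 83.2 and was below the filter. Slc7a3 had 2796.2 and 3597.9 on its 1 probe set, 1417022_at, a log2 ratio of 0.36. The related carrier Slc7a2 was dim on all of its 4 probe sets, with at most 44.3 and 36.2.

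Slc1a4 and Slc1a5 encode ASCT1 and ASCT2, sodium-dependent exchangers of small neutral amino acids: alanine, serine and cysteine for the former, and glutamine in addition for the latter. Slc1a4 was higher on each of its 3 probe sets, but by different amounts. 1423550_at went from 353.0 to 799.8, a 2.27-fold difference and the only one of the 20 probe sets past 2-fold (2.49% of all probe sets past the filter were at least 2-fold higher). 1423549_at went from 973.4 to 1335.4 and 1456003_a_at from 1043.5 to 1241.5, log2 ratios of 0.46 and 0.25. The gene ratio was 0.63 with an SD of 0.49 over probe sets, the widest of the 7 genes. By its brightest probe set alone Slc1a4 had a ratio of 0.46 and was under 1.5-fold. Slc1a5 showed a like split: its bright probe set, 1416629_at, went from 1787.9 to 2140.0 (log2 ratio 0.26), and the dim 1440379_at from 112.8 to 190.4 (0.76). The gene ratio of Slc1a5 was 0.51, and by its brightest probe set 0.26.

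Slc38a1 and Slc38a2 encode SNAT1 and SNAT2, sodium-coupled carriers of small neutral amino acids that accumulate glutamine and alanine inside the cell. SNAT2 is the classical adaptive carrier of amino acid starvation. Slc38a1 had 2252.7 and 3711.1 on 1415903_at, a 1.65-fold difference, which 1.74% of probe sets with a mean signal above 2000 matched or passed. The other probe set, 1454764_s_at, is of a kind whose probes can match more than 1 gene, and it had 4977.6 and 5720.9 (log2 ratio 0.20), which 25.1% matched or passed. The gene ratio was 0.46, and the value without probe sets of such kinds was 0.72.

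Slc38a2 was the exception among the 10 genes, with a ratio of -0.08 and no common direction over its 3 probe sets. The brightest, 1426722_at, went from 9753.2 to 10328.4 (log2 ratio 0.08). 1429593_at was lower on the Tmem132a siRNA array, with 1237.8 and 886.3 (log2 ratio -0.48), and 1429594_at had 103.9 and 115.8. By its brightest probe set the gene ratio was 0.08. With the stricter filter, which left out the dimmest probe set, it was -0.20. The direction of Slc38a2 is therefore not settled by these arrays, while its ratio lay between -0.20 and 0.08 in all 11 settings.

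Slc6a9 encodes GlyT1, a sodium- and chloride-dependent glycine transporter. 1417636_at went from 887.1 to 1351.8, and 1431812_a_at from 177.0 to 300.9, which is 1.52-fold and 1.70-fold. Slc6a9 was thus the 1 gene of the 7 with several probe sets past the filter whose probe sets were all at least 1.5-fold higher. Its gene ratio was 0.69 with an SD of 0.11, and 6.19% of all genes had a ratio as high or higher. The other glycine carrier, Slc6a5, had signals of at most 65.5 and 15.8, and both of its probe sets were below the filter.

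Dim probe sets scatter more than bright ones, so the transporter probe sets were also set against others of similar signal. Of the 19 past the filter, 18 had a ratio above 0 (51.9% of all 19316 such probe sets did), and 0 were at least 1.5-fold lower (10.6% of all were). Above a mean signal of 2000, 1 of 8 was at least 1.5-fold higher, that of Slc38a1, where 3.56% of all were. Between 500 and 2000 there were 2 of 6, of Slc1a4 and Slc6a9, where 6.94% of all were. Between 150 and 500 all 3 were, of Slc7a11, Slc1a5 and Slc6a9, where 11.6% of all were, and from 77.25 to 150, 0 of 2 were, where 19.6% of all were. The Slc1a5 probe set had a mean signal of 151.6, so its place in the former range depends on the edge chosen. The share of probe sets in the same signal range with a ratio as high or higher was 3.04% and 21.5% for the brighter and the dimmer probe set of Slc7a11. It was 25.6% for Slc3a2, 33.6% for Slc7a5 and 12.2% for Slc7a3. For Slc1a4 it was 0.299% on 1423550_at, 12.5% on 1423549_at and 27.8% on 1456003_a_at. From the brightest probe set to the dimmest, it was 27.2% and 6.69% for Slc1a5, 6.33% and 6.5% for Slc6a9, and 40.5%, 87.8% and 44.3% for Slc38a2. As given above, it was 25.1% and 1.74% for Slc38a1, and 6.29% and 5.8% for Slc7a1. The probe sets of Slc7a11, Slc1a4, Slc1a5, Slc38a1 and Slc38a2 thus stood at different places among others of like signal. Those of Slc6a9 stood at nearly the same one, as did those of Slc7a1 past the filter. Probe sets of 1 gene share their transcript and are not independent. Over the 5072 genes with several probe sets past the filter, the SD of probe-set ratios about the mean of the gene was 0.39. That spread, which holds no variation between cultures, is larger than the gene ratios of Slc7a3, Slc3a2, Slc7a5 and Slc38a2, of which the first 3 rest on 1 probe set each.

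**Figure D2:**
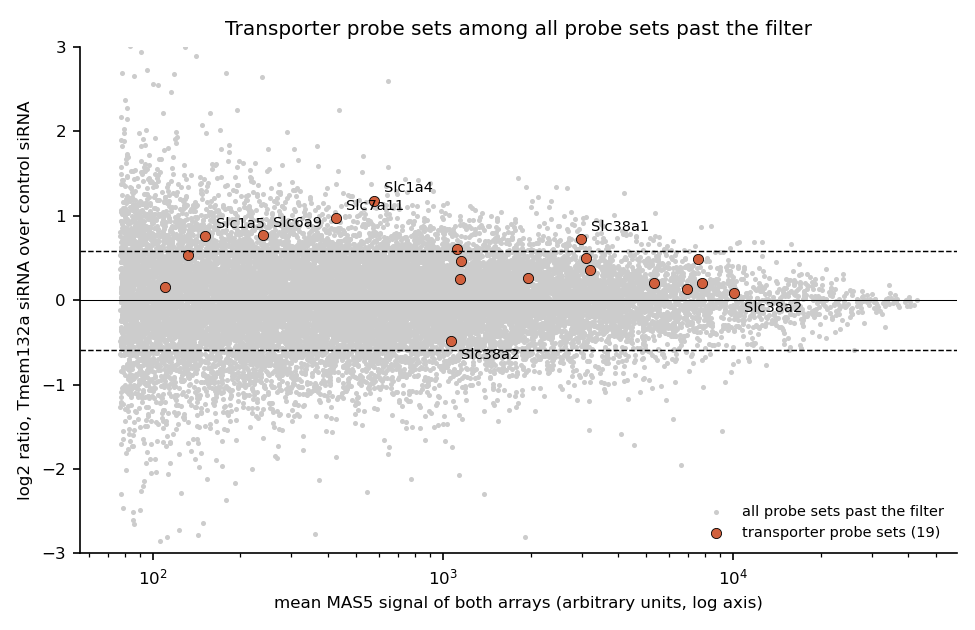
Log2 ratio (Tmem132a siRNA over control siRNA) against mean MAS5 signal (log axis), for all 19316 probe sets past the filter with 1 symbol (grey) and the 19 of the transporters (orange); dashed lines mark 1.5-fold, and 20 probe sets lie beyond the vertical axis. The orange points lie above 0 with 1 exception, an Slc38a2 probe set at -0.48, and the highest are Slc1a4 at 1.18 and Slc7a11 at 0.97.

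Amino acid transporters outside this set had medians near 0. Of 40 further genes of the same SLC families, 37 had a probe set and 10 passed the filter. Their median was 0.04, with 6 above 0, where 51.8% of all genes were. None was as much as 1.5-fold higher, and 1 was at least 1.5-fold lower. These counts are near the shares of all genes, 8.83% higher and 9.10% lower. The highest were 3 members of the SLC38 family, Slc38a6 at 0.41, Slc38a7 at 0.28 and Slc38a9, the lysosomal arginine sensor of mTORC1, at 0.28 over probe sets that ran from -0.10 to 0.73. The lowest were Slc7a4 at -0.68, from 136.8 to 85.6, and the taurine transporter Slc6a6 at -0.27. The glial and neuronal glutamate transporters Slc1a1, Slc1a2 and Slc1a3 were below the filter on all of their probe sets.

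Among 12 transporters of other families 10 passed the filter, with a median of -0.09 and 0 past 1.5-fold in either direction. Of all genes, 8.83% were that much higher and 9.10% that much lower, so 0 of 10 is near those shares. The mitochondrial carriers Slc25a38, of glycine, and Slc25a12, of aspartate and glutamate, had the highest ratios, 0.42 and 0.25, followed by Slc36a3 at 0.08. Slc36a1, a proton-coupled carrier that exports amino acids from lysosomes, was lowest at -0.53, from 1734.4 to 1201.5. Slc16a10, a carrier of aromatic amino acids, had a ratio of -0.43. Slc43a1 and Slc43a2, which carry large neutral amino acids without the CD98 heavy chain, lay at -0.41 and -0.33. The difference between the transporter sets was not tested, since 1 array per group allows no test.

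Genes of the wider ATF4 pathway lay mostly on the same side of 0 as the transporters. Of 26 other genes of the pathway, 22 passed the filter and 21 of them lay above 0, as did 51.8% of all genes. Their median was 0.43. Past 1.5-fold, 7 of the 22 were higher and 0 lower, where 8.83% and 9.10% of all genes were. The highest were the stress-induced factor Atf3 at 1.39, the pseudokinase gene Trib3 at 1.23 and Ddit3, which encodes CHOP, at 1.01, all 3 above any of the 10 transporters. Atf4 itself, which is regulated mainly in translation, had a ratio of 0.31 over probe sets of 0.23 and 0.38. Asns, asparagine synthetase, had 0.25 on both of its probe sets, the brighter of which went from 21858.0 to 26062.5. Ddit4, an inhibitor of mTORC1, and Atf5 were lowest, at -0.11 and 0.06. All of these ratios come from the same 2 arrays as those of the transporters, so the lists do not support each other independently. The ER chaperone Hspa5, a gene of the unfolded protein response, had a ratio of 0.29.

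The 4 kinases of eIF2-alpha were all measured and none reached 1.5-fold, where 8.83% of all genes were that much higher and 9.10% lower. Eif2ak1, the heme-regulated kinase, had a ratio of 0.51, Eif2ak3 (PERK, the kinase of the endoplasmic reticulum) one of 0.30 and Eif2ak4 (GCN2, the sensor of uncharged tRNA) one of 0.11. Eif2ak2 (PKR), which double-stranded RNA activates, lay at -0.24, with probe sets from -0.66 to 0.33, and by its brightest probe set it was at least 1.5-fold lower.

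**Figure D3:**
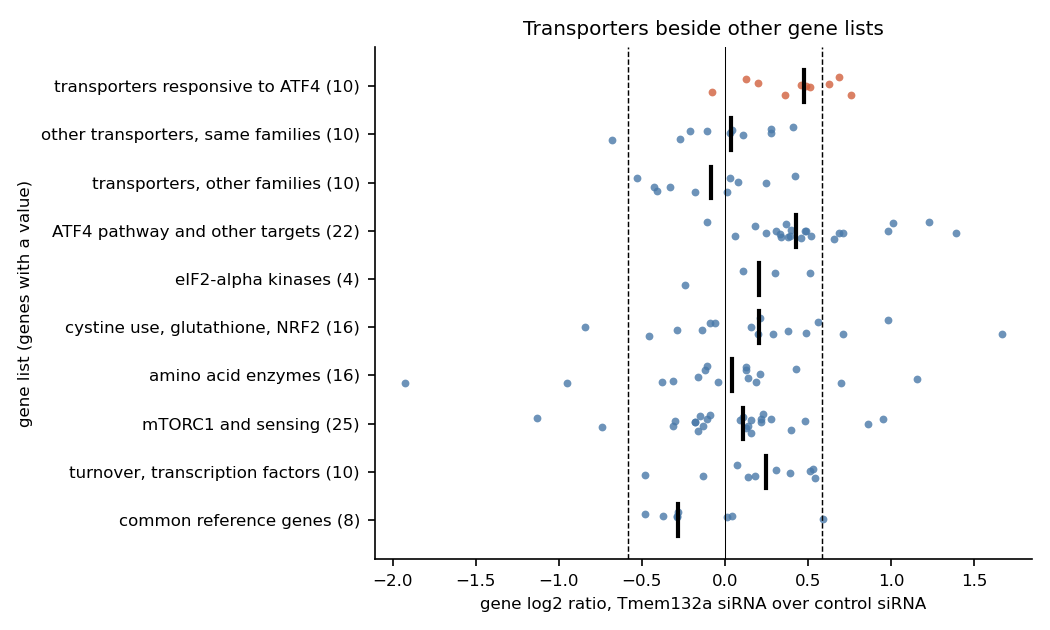
Gene log2 ratio, Tmem132a siRNA over control siRNA, for the 10 transporters (orange) and 9 other gene lists (blue); each point is a gene with a value, thick bars are list medians and dashed lines mark 1.5-fold. The transporters have a median of 0.48 and the ATF4 pathway 0.43, while the other transporters of the same families and those of other families have medians of 0.04 and -0.09.

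Cystine brought in by xCT feeds glutathione synthesis, and NRF2 regulates many genes of that pathway. Of 19 genes of cystine use, glutathione synthesis and NRF2, 16 passed the filter, with a median of 0.21. Past 1.5-fold, 3 were higher (8.83% of all genes) and 1 lower (9.10% of all genes). Srxn1, sulfiredoxin and an NRF2 target, had a ratio of 1.67. Cth, which makes cysteine from cystathionine and is also on the ATF4 list, had one of 0.98, from 2039.1 to 4011.3. Gclc, the catalytic subunit of the first enzyme of glutathione synthesis, had 0.71. Cbs, the enzyme one step before Cth, was lower at -0.84 over probe sets of -0.58 and -1.09, but was under 1.5-fold by its brightest probe set. Chac2, which degrades glutathione, had a ratio of -0.46, and Nfe2l2, which encodes NRF2, one of 0.29. Other genes on the list were under 1.5-fold, among them Hmox1 at 0.56, Txnrd1 at 0.38, Gclm at 0.16 and Nqo1 at -0.06.

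Enzymes that use glutamine, glutamate, branched-chain amino acids and arginine had a median of 0.04 over 16 genes, with 2 at least 1.5-fold higher and 2 lower (8.83% and 9.10% of all genes). The alanine aminotransferases Gpt and Gpt2 were the highest, at 1.16 and 0.70. Gpt2 was higher on all of its 4 probe sets, with log2 ratios between 0.53 and 0.85, and Dld was next at 0.43. Glul, glutamine synthetase, was lower at -0.95, and its brighter probe set went from 2257.0 to 833.5. Bcat2, which transaminates branched-chain amino acids in mitochondria, was lowest at -1.93, from a dim 181.6 to 47.6. Both genes were read only by probe sets with an a suffix, so without such probe sets neither had a value.

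Genes of mTORC1, the growth kinase that amino acids activate, had a median of 0.11 over 25 genes, with 2 at least 1.5-fold higher and 2 lower, shares near those of all genes (8.83% and 9.10%). The median was -0.09 when each gene was read by its brightest probe set alone, so the list has no settled direction. Fnip1, a partner of folliculin in amino acid sensing, had a ratio of 0.95 over 3 probe sets between 0.85 and 1.08. Castor1, the cytosolic arginine sensor, lay at 0.86 (110.9 to 201.9) and its relative Castor2 at -1.13 (197.3 to 90.1), both on dim probe sets. Mtor had a ratio of 0.48 and Mlst8 one of -0.74.

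For transporter turnover and further regulators of transcription the median was 0.25 over 10 genes, none of them past 1.5-fold. Of all genes, 8.83% were that much higher and 9.10% lower. Tfeb, a lysosomal regulator, Sgk1, a kinase that opposes removal of transporters from the surface, and Max, the partner of MYC, were highest at 0.54, 0.53 and 0.51. Myc had a ratio of 0.31, while Mycn, the MYC family gene of neuroblastoma, had one of -0.48, from 1896.8 to 1427.0 on its brightest probe set, and Arrdc3 one of -0.13. Common reference genes had a median of -0.28 over 8 genes, from -0.48 for Gusb and -0.37 for Pgk1 to 0.01 for Actb, 0.04 for Sdha and 0.59 for Tbp. The transporters' median was thus higher than that of the reference genes as well as that of all genes.

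**Figure D4:**
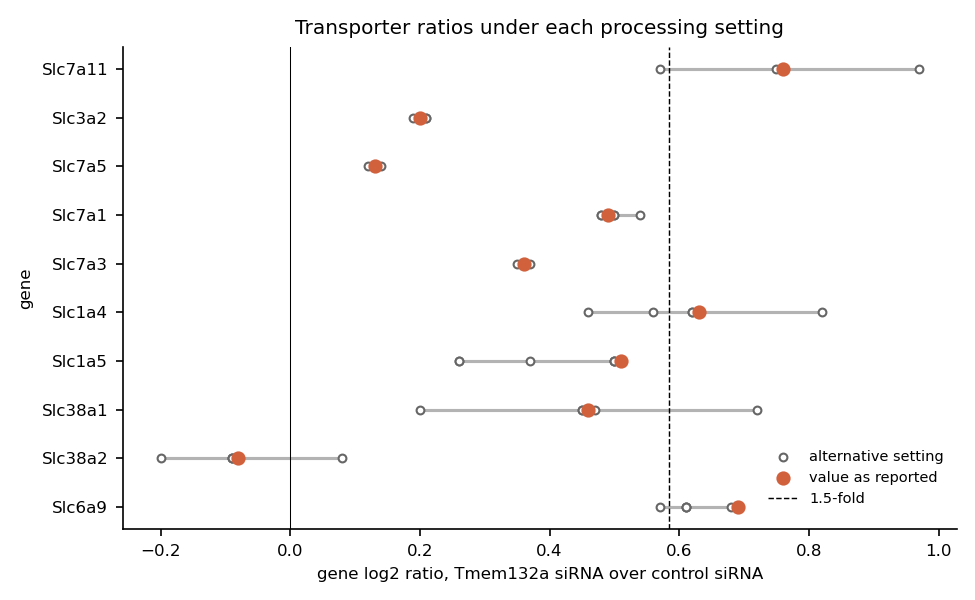
Gene log2 ratio of each transporter as reported (orange) and under up to 10 alternative processing settings (open circles); the dashed line marks 1.5-fold. Slc7a3, Slc7a5 and Slc3a2 barely move, Slc38a1 ranges from 0.20 to 0.72, Slc7a11 from 0.57 to 0.97, and Slc38a2 has values on both sides of 0.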

How the data were processed

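The authors deposited MAS5 signal intensity on a linear scale, 1 value per probe set, as the submitters' processing notes and the series text name it; scaling and MAS5 version are not given in the sources used here. Computation used Python 3.11.15, numpy 2.4.6, pandas 2.3.3, scipy 1.17.1, statsmodels 0.14.6 and matplotlib 3.10.9. Both arrays were set to 1 trimmed mean. Of 45101 probe sets, 64 controls were left out, and 34945 of the rest had 1 symbol in the platform annotation. A probe set passed at a mean signal of at least 77.25, the median; signals under 14.5, the 20th percentile, were set to it. This left 10678 genes with a value, and the procedure was tested on simulated data. The number of arrays limits precision.

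Alternatives tried were: deposited signals as they are, centring the ratios on a median of 0, quantile normalization, loess with a span of 0.3, dropping the filter or raising it to the 75th percentile (462.8), dropping the floor or adding a pseudocount of 79.2 instead, reading a gene by its brightest probe set, and omitting x, s and a probe sets. Genes were named by rule: all transporters, Tmem132a, Hspa5, Atf4, Asns, Nfe2l2, Myc, Mycn and the Slc3a2 light chains. Of each list the 3 highest and 2 lowest were named as well. Further relatives of the transporters, and some genes of the marker and the glutathione and NRF2 lists, were added after their values were seen. Members and lists were chosen with earlier results of these data known. Promoters are from RefSeq, and protein sequences were not used here.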

Additional observations from a re-analysis of the deposited data

How the results depend on the processing

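Of 98 values of single transporters under the alternatives, all 98 moved by less than 0.39, the SD of probe sets within a gene. Of 30 counts and medians over the transporters, 28 stayed within 1.5 times or within that SD divided by the square root of the number of genes. The exceptions were the count at least 1.5-fold higher, 3 as reported and 0 with the pseudocount, and the median, 0.48 as reported and 0.31 by the brightest probe set; the cause was not tested. None was 1.5-fold lower in any setting. The share of all genes at least 1.5-fold higher was 8.83%, 16.0% with no filter, 5.71% with the filter at the 75th percentile and 4.35% with the pseudocount; 9.10% and 5.15% were lower as reported and with the pseudocount. Rescaling, quantile normalization and loess left the transporters' median between 0.47 and 0.48. Of 300 values for the other lists 34 moved. With no filter the 37 other transporters of the same families held 6 higher and 6 lower, where 16.0% and 12.1% of all genes were. The ATF4 list had a median between 0.42 and 0.49 and between 5 and 8 genes higher. Slc7a11 had no value with the stricter filter, nor Slc3a2 without x, s and a probe sets. Signals near the filter limit what can be said of dim probe sets. No paired analysis was possible because each group has 1 array.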

Other observations

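The ATF4 element found in the Slc7a11 and Slc1a4 promoters was followed over all genes with a promoter and a value, a comparison chosen after the values of the transporters were seen. Of 63 genes with TGATGCAA in the window, 8 were at least 1.5-fold higher (12.7%) and the median ratio was 0.22. Of 8650 genes without it, 756 were (8.74%), with a median of 0.01. When the transporters and the ATF4 list were left out, 57 genes with the element remained, 5 of them higher (8.77%) and 5 lower (8.77%), with a median of 0.15. The share of higher genes with the element was then about that of genes without it, while the median stayed above that of genes without it. The looser form TGATGNAA gave 21 of 225 genes higher (9.33%) and 20 lower (8.89%) on the same basis. Of 8480 genes without the looser form, 8.71% were higher and 8.94% lower. On the ATF4 list itself 24 genes had a promoter, and 7 held TGATGCAA, where 1.03% of all genes with a promoter did. They were Atf3, Chac1, Fgf21, Herpud1, Nupr1, Pycr1 and Vldlr. Of these, Fgf21 and Vldlr were below the filter and Pycr1 had no probe set, so they had no ratio. Trib3 and Asns held only the looser form.

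The core of the antioxidant response element, TGACNNNGC, through which NRF2 acts, was searched on both strands and lay in 12.4% of all promoters and in 3 of the 6 transporter genes with a promoter, Slc6a9, Slc7a1 and Slc38a2. The core was not in the Slc7a11 window, but sequence outside the windows and other forms of the element were not searched. Of 1463 genes with it and a value, 8.13% were at least 1.5-fold higher, and of 7250 genes without it 8.90% were.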
